A study of Mus musculus with 15 samples.

Results

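The transcripts followed here are 10 genes of the hepatic Wnt circuit: 3 secreted signals made by the endothelium of the central vein and the neighbouring sinusoids (Wnt2, Wnt9b and Rspo3), and 7 genes that respond to these signals or mark the hepatocytes beside the central vein (Axin2, Lgr5, Glul, Oat, Slc1a2, Rhbg and Cyp2e1). They were chosen by gene symbol, with earlier results of these data known. Each symbol stood on 1 of the 19464 rows of the table, so all 10 of 10 genes were found. RNA-seq libraries of liver came from wildtype and from Stab1-/- animals, 4 and 3 of them at the fetal stage E17.5 and 4 and 4 at 2 weeks of age. Stab1 encodes Clever-1, a scavenger receptor of sinusoidal endothelium and macrophages, and the knockout mice lack it in all cells rather than in endothelium alone. Both genotypes carry the label C57BL/6N;129SvJ for their strain background, and whether the wildtype mice were littermates of the knockouts is not given in the sources used here. In RNA of dissected liver a level is an average over all liver cells and holds no position within the lobule.

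In the adult liver, hepatocytes differ along the path of blood from the portal vein to the central vein, an arrangement called zonation. Wnt2 and Wnt9b reach hepatocytes around the central vein and stabilise beta-catenin there, and Rspo3 strengthens the same response by keeping Wnt receptors on the cell surface. Axin2 and Lgr5 are direct targets that feed back on the pathway, whereas glutamine synthetase (Glul), the ammonium transporter Rhbg, the glutamate transporter Slc1a2, ornithine aminotransferase (Oat) and the cytochrome P450 Cyp2e1 belong to the metabolism of pericentral hepatocytes. Periportal hepatocytes, at the other end, are known for the urea cycle and for gluconeogenesis. The comparisons asked whether these genes rise between the fetal and the 2-week liver, and whether their levels differ in the absence of Clever-1.

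Beta-catenin acts on DNA through TCF/LEF factors, whose binding sites hold the letters CTTTGA. RefSeq windows of 250 bases before the transcription start (GRCm38.p6) were found for 7 of the 10 genes, and these letters stood on either strand in 2 of the 7, against 13.8% of all 32851 such windows. The windows of Slc1a2 and Cyp2e1 are shown because these pericentral genes had the largest rises with age and, at 2 weeks, had RPKM ranges that did not overlap between genotypes, in opposite directions, and that of Glul because it was lower in Stab1-/- liver at 2 weeks and had no match. Capitals mark CTTTGA or its reverse complement, and the bases run 5′ to 3′ up to the base before the start.
Slc1a2, chr2:102706188-102706437, plus strand: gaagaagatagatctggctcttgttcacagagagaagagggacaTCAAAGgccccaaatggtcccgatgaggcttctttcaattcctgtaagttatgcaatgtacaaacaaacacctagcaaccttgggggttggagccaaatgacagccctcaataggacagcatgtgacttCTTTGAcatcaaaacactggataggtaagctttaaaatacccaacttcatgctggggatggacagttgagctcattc
Cyp2e1, chr7:140763569-140763818, plus strand: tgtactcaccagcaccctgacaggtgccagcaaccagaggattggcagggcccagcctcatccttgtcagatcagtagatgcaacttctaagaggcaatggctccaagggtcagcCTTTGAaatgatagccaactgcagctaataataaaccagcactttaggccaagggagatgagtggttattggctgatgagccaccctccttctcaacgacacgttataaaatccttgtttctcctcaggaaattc
Glul, chr1:153899679-153899928, plus strand: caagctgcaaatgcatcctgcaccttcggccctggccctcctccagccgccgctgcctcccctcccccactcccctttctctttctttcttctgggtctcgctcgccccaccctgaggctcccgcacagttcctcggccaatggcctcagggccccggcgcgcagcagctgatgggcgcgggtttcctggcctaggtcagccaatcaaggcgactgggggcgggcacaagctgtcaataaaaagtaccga
In Slc1a2 the letters began at -206 and -77, and in Cyp2e1 at -135, counted from the transcription start. A match describes these letters and is not evidence of binding, and the Glul window without a match says nothing about sites elsewhere.

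Reads counted on genes, in units of 1000, numbered from 9659 to 10964 per library. The level of a gene is given as RPKM, the reads scaled to the length of the gene and to all reads counted in that library. The targeted gene followed the labels: Stab1 lay between 14.9 and 21.8 RPKM in the wildtype and between 3.6 and 5.23 in the Stab1-/- libraries at E17.5, and between 7.3 and 11 against 0.862 and 1.54 at 2 weeks, so 25.4% and 11.7% of the wildtype mean remained in the table. Which part of the gene is deleted is not given in the sources used here. Endothelial, sinusoidal and hepatocyte markers were present in every group, with reads for 14 of 14, 10 of 10 and 10 of 10 genes. One library stood apart: in Stab1-/- E17.5 replicate 1, the epithelial genes Epcam, Krt19 and Krt7 reached 41.1, 22.9 and 14.8 RPKM, whereas the other E17.5 libraries did not exceed 3.52, 4.11 and 3.7, and the summed level of 5 cholangiocyte markers was 106 against 25.1 to 57.1. Genes of intestinal epithelium were also high there: the intestinal transcription factor Cdx2 at 11.2 RPKM, the intestinal cadherin Cdh17 at 23.4, villin (Vil1) at 28.9 and lactase (Lct) at 8.18. The other E17.5 libraries held at most 0.836, 1.14, 2.84 and 0.227 RPKM of these 4 genes, which were chosen after their values were seen, and the highest of the first 3 belonged to Stab1-/- replicate 3. Whether this library holds RNA of tissue other than liver was not tested. For the fitted changes of Oat and Axin2 the value without it is given as well. Other results that use this group include it unless stated.

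**Figure D1:**
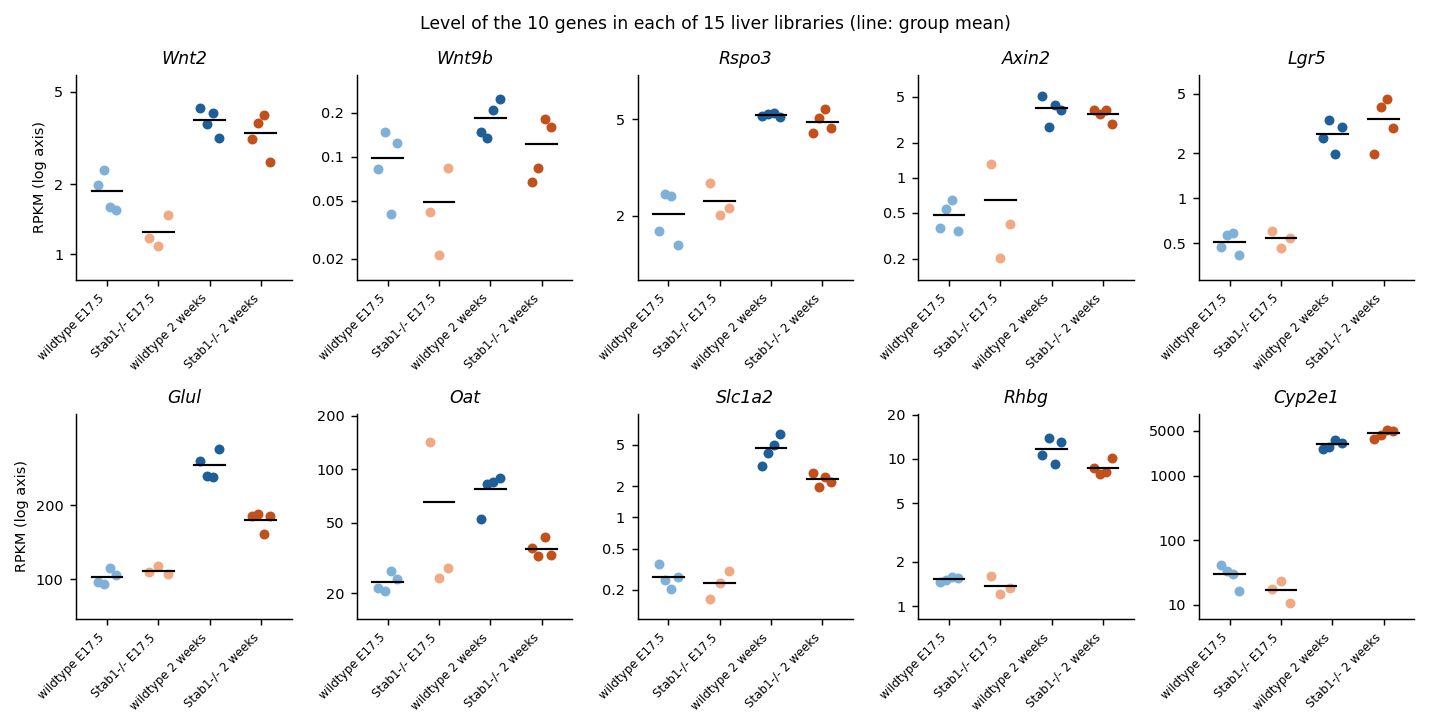
RPKM of each of the 10 genes in the 15 libraries on a logarithmic axis, with 1 point per library and a line at each group mean. In 8 of the genes every 2-week library lies above every E17.5 library of its genotype, Wnt9b groups overlap, and in Oat 1 Stab1-/- E17.5 library reaches 143 RPKM. The share of all genes that separate the ages in this way was not counted.

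All 9 genes with enough reads for the test were higher at 2 weeks than at E17.5 in wildtype liver, and 8 of the 9 in Stab1-/- liver. Wnt9b, at 1 to 12 reads per library, was removed by the filter on low counts. The test was edgeR's quasi-likelihood test with Benjamini-Hochberg adjustment over all genes tested, called at an adjusted p under 0.05. The liver as a whole changed between these ages: 71.9% of all genes tested were called in wildtype and 72.5% in Stab1-/- liver, 34.9% and 35.7% being called in the higher direction. The count of genes is therefore read beside the size of their changes. How many of all genes had ages without overlap was not counted, so separate ages are given below as a description. The median log2 fold change of the 9 genes was 2.75 in wildtype and 2.71 in Stab1-/- liver, beside -0.01 and -0.01 over all genes tested.

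Both endothelial signals that could be tested rose from low fetal levels. Wnt2 measured 1.98, 2.31, 1.6 and 1.55 RPKM in the wildtype libraries at E17.5 and 4.25, 3.62, 4.05 and 3.15 at 2 weeks. In Stab1-/- liver it measured 1.17, 1.08 and 1.47 RPKM at E17.5 and 3.12, 3.67, 3.97 and 2.48 at 2 weeks. The ages did not overlap in either genotype, and the fitted rise of Wnt2 was 2.60-fold in wildtype (log2 1.38, SE 0.17, adjusted p = 1.27e-05) and 3.09-fold in Stab1-/- liver (log2 1.63, SE 0.219, adjusted p = 4.85e-05).

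Rspo3, the R-spondin of the central vein, rose as well. Its wildtype libraries held 1.73, 2.46, 2.42 and 1.51 RPKM at E17.5 and 5.15, 5.23, 5.31 and 5.09 at 2 weeks, when they spanned a narrow range. The Stab1-/- libraries held 2.72, 2.02 and 2.15 RPKM at E17.5 and 4.37, 5.06, 5.5 and 4.6 at 2 weeks. Every 2-week library was above every fetal one, with a 3.28-fold rise of Rspo3 in wildtype (log2 1.71, SE 0.161, adjusted p = 1.13e-06) and a 2.48-fold rise in Stab1-/- liver (log2 1.31, SE 0.155, adjusted p = 1.75e-05).

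Wnt9b, the other Wnt ligand ascribed to the central vein, was close to the limit of detection. It had 4, 7, 2 and 6 reads in the wildtype and 2, 1 and 4 reads in the Stab1-/- libraries at E17.5, and 7, 6, 10 and 12 against 3, 4, 8 and 7 reads at 2 weeks. Neighbouring groups overlapped throughout. Without the filter on low counts the wildtype rise of Wnt9b passed (log2 1.28, SE 0.438, adjusted p = 0.0227) and that in Stab1-/- liver did not (log2 1.53, SE 0.675, adjusted p = 0.072), so at this depth its course was only partly measurable.

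Axin2, a scaffold of the beta-catenin destruction complex and a target of beta-catenin, was barely expressed in fetal liver. It measured 0.369, 0.537, 0.639 and 0.349 RPKM in wildtype libraries at E17.5 and 5.09, 2.73, 4.25 and 3.88 at 2 weeks, a 10.8-fold rise (log2 3.43, SE 0.236, adjusted p = 6.52e-08). The Stab1-/- libraries held 1.31, 0.201 and 0.397 RPKM at E17.5, the first being the library rich in epithelial transcripts, and 3.86, 3.56, 3.87 and 2.9 at 2 weeks. The rise of Axin2 in Stab1-/- liver was 6.54-fold (log2 2.71, SE 0.399, adjusted p = 9.66e-05) with that library and 13.3-fold without it (log2 3.73, SE 0.247, adjusted p = 6.86e-08).

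Lgr5, the receptor for R-spondins, had the same course with a wider spread at 2 weeks. Wildtype libraries held 0.473, 0.569, 0.581 and 0.417 RPKM at E17.5 and 2.51, 3.3, 1.96 and 2.98 at 2 weeks. Stab1-/- libraries held 0.605, 0.467 and 0.541 RPKM at E17.5 and 1.96, 4.09, 4.57 and 2.96 at 2 weeks. The ages were separate in both genotypes, and Lgr5 rose 6.73-fold in wildtype (log2 2.75, SE 0.195, adjusted p = 8.71e-08) and 7.36-fold in Stab1-/- liver (log2 2.88, SE 0.3, adjusted p = 6.37e-06).

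Among the pericentral metabolic genes the starting levels differed widely. Glul was already abundant in fetal liver, at 97.8, 95.5, 111 and 104 RPKM in wildtype and 107, 113 and 105 in Stab1-/- libraries. At 2 weeks Glul was at 303, 263, 261 and 339 RPKM in wildtype but only at 180, 184, 152 and 181 in Stab1-/- libraries. Glutamine synthetase transcript thus rose 3.68-fold in wildtype (log2 1.88, SE 0.121, adjusted p = 3.66e-08) and 1.87-fold in Stab1-/- liver (log2 0.91, SE 0.118, adjusted p = 3.67e-05).

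Slc1a2 and Rhbg started near the bottom of the range. Slc1a2 held 0.353, 0.248, 0.205 and 0.267 RPKM in wildtype libraries at E17.5 and 3.15, 4.2, 4.99 and 6.36 at 2 weeks, and 0.164, 0.231 and 0.302 against 2.66, 1.95, 2.46 and 2.21 in Stab1-/- libraries. Slc1a2 rose 22.5-fold in wildtype (log2 4.49, SE 0.258, adjusted p = 1.32e-08) and by a log2 change of 3.53 in Stab1-/- liver (SE 0.199, adjusted p = 5.0e-08). Rhbg, between 1.2 and 1.59 RPKM in all 7 fetal libraries, reached 10.7, 13.8, 9.31 and 13.1 RPKM in wildtype and 8.69, 7.86, 8.12 and 10.2 in Stab1-/- libraries at 2 weeks. The rise of Rhbg was 9.84-fold in wildtype and 7.40-fold in Stab1-/- liver (adjusted p = 2.62e-09 and 9.72e-08).

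Cyp2e1, which oxidises ethanol and other small molecules, went through the largest change of the 10 genes. Wildtype libraries held 41, 33.2, 29.6 and 16.4 RPKM at E17.5 and 2550, 2820, 3620 and 3260 at 2 weeks. Stab1-/- libraries held between 10.7 and 23.6 RPKM at E17.5 and 3690, 4320, 5130 and 5010 at 2 weeks. The fitted rise of Cyp2e1 was 131-fold in wildtype (log2 7.03, SE 0.305, adjusted p = 1.25e-09) and 306-fold in Stab1-/- liver (log2 8.26, SE 0.349, adjusted p = 6.21e-09).

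Oat, a mitochondrial enzyme that links ornithine to glutamate, was the only tested gene of the 10 without a called rise in Stab1-/- liver. Its wildtype libraries held 21.5, 20.5, 26.5 and 24.1 RPKM at E17.5 and 52.2, 82.6, 84.6 and 89.3 at 2 weeks, a 4.31-fold rise (log2 2.11, SE 0.176, adjusted p = 3.81e-07). The Stab1-/- libraries held 143, 24.4 and 27.6 RPKM at E17.5 and 35.8, 32.3, 41.2 and 33 at 2 weeks. The high fetal value belongs to the library with the epithelial and intestinal transcripts: with it the log2 change of Oat in Stab1-/- liver was -0.61 (SE 0.474, adjusted p = 0.268), and without it Oat rose 1.55-fold (log2 0.63, SE 0.118, adjusted p = 4.63e-04). The part of those transcripts in the Oat value was not tested.

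**Figure D2:**
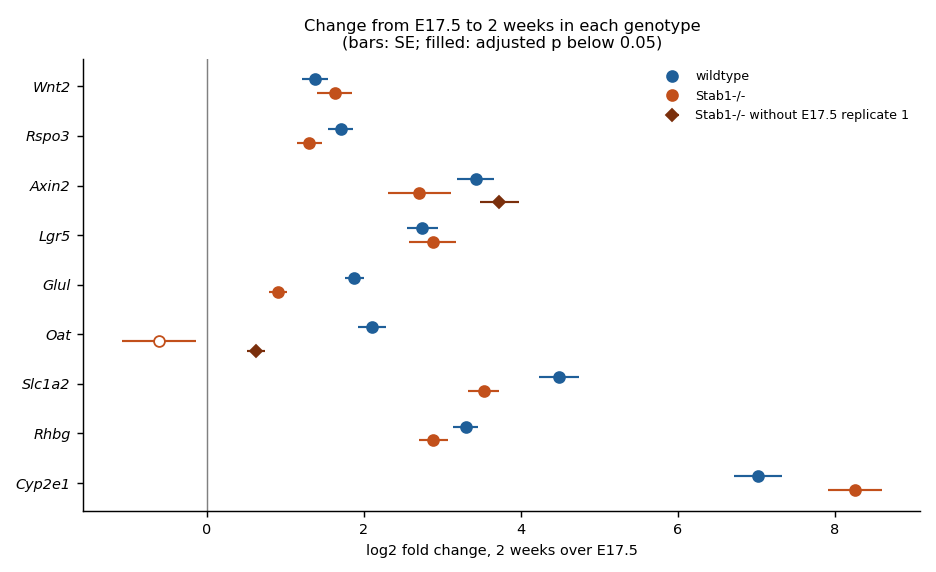
Log2 fold change from E17.5 to 2 weeks of the 9 tested genes in wildtype and in Stab1-/- liver, with SE bars. Filled symbols passed an adjusted p of 0.05, and diamonds show Axin2 and Oat in Stab1-/- liver without E17.5 replicate 1, where Oat moves from -0.61 to 0.63.

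The cell make-up of the liver changed between the ages as well. The summed RPKM of 12 erythroid markers ranged from 13200 to 14700 in wildtype and from 12000 to 15900 in Stab1-/- libraries at E17.5, and fell to between 197 and 470 and between 198 and 463 at 2 weeks, with 12 of 12 called lower in both genotypes and reads for all 12 in every group. In bulk RNA, fewer cells of a type and less RNA per cell cannot be told apart. The summed hepatocyte markers went from 76600–86800 to 111000–137000 RPKM in wildtype and from 83300–97800 to 87200–110000 in Stab1-/- libraries. The summed stellate and fibroblast markers went from 150–173 to 237–282 RPKM in wildtype libraries. In Stab1-/- libraries these markers went from 120–212 (212 in E17.5 replicate 1) to 226–252 RPKM. The part of these cells in the rises was not tested. Dividing every library by its total reads instead of by TMM factors lowered the median change of all genes tested to -0.38 in wildtype and -0.24 in Stab1-/- liver on the log2 scale and the split of calls to 3104 higher and 6834 lower (4667 and 4948 with TMM) and to 3758 and 5944 (4791 and 4945). The direction of change of all 9 tested genes stayed the same under that scaling, for instance Wnt2 at 1.02 and 1.41 and Glul at 1.51 and 0.68 on the log2 scale in wildtype and Stab1-/- liver.

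To set the signals against endothelial genes, the log2(RPKM + 0.1) of each signal was compared in each library with the mean of 14 pan-endothelial or 10 sinusoidal genes. They were not set against genes of other cell types. Relative to pan-endothelial genes, Wnt2 was higher at 2 weeks by 0.76 in wildtype and by 1.29 in Stab1-/- liver on the log2 scale, and Rspo3 by 1.11 and 1.02. The ages did not overlap in any of these 4 comparisons, and how many other genes separate the ages in this way was not counted. The exact two-sided permutation p was 0.0286 in each of the 4, the smallest these group sizes allow (0.0676 after adjustment over the 52 relative comparisons made). Against sinusoidal genes Rspo3 was still higher by 0.61 and 0.46 (exact p = 0.0286 in both), whereas the Wnt2 differences of 0.26 and 0.73 had an exact permutation p of 0.229 and 0.0571. The rise of the sinusoidal list itself differed by gene: Clec4g, Fcgr2b and Dnase1l3, genes of mature sinusoidal endothelium, rose by log2 2.56, 2.49 and 2.40 in wildtype liver, and Lyve1, a hyaluronan receptor, fell by 0.99.

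All 7 responding genes were also higher at 2 weeks in wildtype liver relative to 10 general hepatocyte genes. Each 2-week library lay above each fetal one, and the share of all genes for which this holds was not counted. On the log2 scale the relative rise ran from 0.95 for Glul to 6.17 for Cyp2e1 in wildtype, with an exact permutation p of 0.0286 for each of the 7 (0.0676 adjusted). In Stab1-/- liver the relative rise of Glul was 0.20 and its ages overlapped (exact permutation p = 0.0857), that of Oat was -0.85 (exact permutation p = 0.257) with all libraries and -0.03 without E17.5 replicate 1, and that of the remaining 5 genes lay between 1.91 for Lgr5 and 7.61 for Cyp2e1. Between genotypes at E17.5, leaving out that library took the relative level of Oat from 0.93 to 0.11 and that of Axin2 from 0.02 to -0.6, all on the log2 scale. Among the 7, Cyp2e1 had the largest relative rise in both genotypes.

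**Figure D3:**
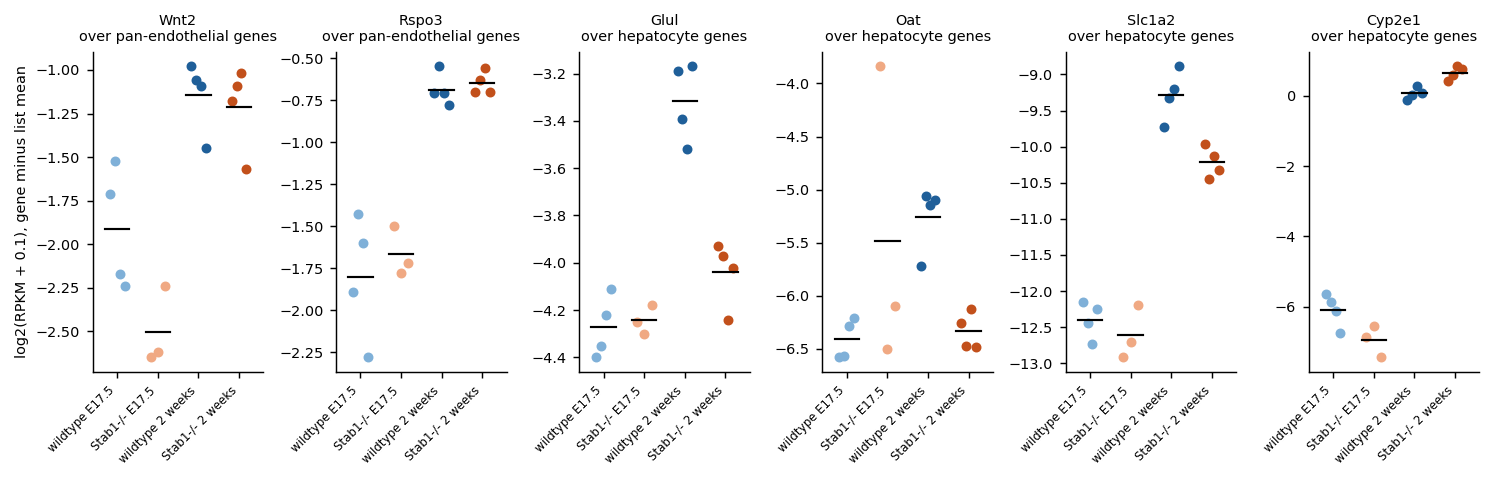
Difference in log2(RPKM + 0.1) between a gene and the mean of its reference list (pan-endothelial for Wnt2 and Rspo3, hepatocyte for the other 4), with 1 point per library and a line at each group mean. Wnt2 and Rspo3 separate the ages and not the genotypes at 2 weeks, whereas Glul, Oat and Slc1a2 are lower and Cyp2e1 is higher in every Stab1-/- than in every wildtype library at 2 weeks.

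Other ligands, receptors and transduction genes of the Wnt pathway included genes that rose and genes that fell with age. Of 18 other Wnt and R-spondin ligands in the table only 6 had enough reads, and Wnt5a, Wnt5b and Wnt9a rose in wildtype liver (log2 2.74, 2.44 and 0.78), Wnt5a and Wnt5b, ligands of the non-canonical branch, also in Stab1-/- liver (1.93 and 3.28). Among 29 tested receptors and transduction genes, 12 were higher and 9 lower in wildtype and 11 and 9 in Stab1-/- liver, a share of called genes close to the 71.9% and 72.5% over all genes tested. Tcf7 and Fzd8, a TCF factor and a Wnt receptor, rose by log2 2.47 and 3.23 in wildtype and by 2.38 and 2.73 in Stab1-/- liver, whereas Lef1, another factor of the TCF family, fell by 2.60 and 3.51 and the receptor Fzd5 by 1.55 and 1.94. Lef1 went from between 1.19 and 2.19 RPKM in the fetal libraries to at most 0.283 at 2 weeks.

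Notum, a secreted enzyme that inactivates Wnt proteins and is itself a Wnt target, lay between 0.0473 and 0.284 RPKM in all fetal libraries and between 21.3 and 42.8 at 2 weeks, a fitted log2 rise of 7.45 in wildtype and 8.51 in Stab1-/- liver. Wif1, which binds Wnt ligands, rose by log2 2.64 and 3.05, and Sfrp1, a decoy for Wnt ligands, fell by 1.97 and 2.49. In the list of inhibitors and antagonists, 7 of 9 tested genes were higher and 2 lower in wildtype, and 5 and 1 of 8 in Stab1-/- liver. The list medians were 1.23 and 0.60 on the log2 scale. Dkk3 rose in wildtype (log2 1.62, adjusted p = 9.23e-06) and not in Stab1-/- liver (log2 -0.04, adjusted p = 0.904).

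Genes of both ends of the lobule rose with age. Of 20 other pericentral and Wnt feedback genes tested, 19 were higher at 2 weeks in wildtype liver (median log2 fold change 3.07), and 20 of 21 in Stab1-/- liver (median 2.86), among them Lect2 and Gulo at log2 4.22 and 4.27 in wildtype and Cyp2c29 at 9.65 in Stab1-/- liver. Of 20 periportal genes, 20 were higher in wildtype (median 2.25) and 18 higher and 1 lower in Stab1-/- liver (median 1.85), including Hal, Gls2 and Asl of amino acid and urea metabolism at log2 3.17, 2.67 and 2.63 in wildtype. The periportal gene that fell in Stab1-/- liver was Aldh1b1, by 1.07 on the log2 scale. It went from 129, 79 and 68 to between 30.3 and 46.4 RPKM, the 129 being in E17.5 replicate 1. Levels of both sets at 2 weeks thus stood above fetal liver, and whether they had become restricted to their zones cannot be read from whole-liver RNA.

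At 2 weeks, 3 of the 9 tested genes were lower in Stab1-/- than in wildtype liver (Oat, Glul and Slc1a2), none was called higher, and both endothelial signals differed by less than the test could call. Over all genes tested 2.67% were called and 1.74% were called lower, a smaller share than 3 of 9. The 10 genes were chosen with earlier results of these data known, so this is no independent test. In other lists 5 of 20 periportal genes, 5 of 10 stellate and fibroblast markers and 1 of 21 other pericentral and feedback genes were called lower. For Oat, Glul and Slc1a2, all Stab1-/- libraries lay below all wildtype libraries in RPKM, which was so for 4.5% of all genes tested. The calls rest on the same libraries, so this describes them again and is no second test. Of the 9 genes, 5 had an unadjusted p under 0.05, and DESeq2 called 5. Over all genes the calls were 119 higher and 221 lower, and 137 and 118 when libraries were scaled by their totals, under which Glul, Oat and Slc1a2 kept their direction. Fold changes between genotypes at 2 weeks followed transcript GC content (Spearman's rho -0.318, and -0.277 for the interaction with age). Between ages rho was 0.08 in wildtype and -0.04 in Stab1-/- liver. With GC-content offsets the calls at 2 weeks were 115 higher and 278 lower. Glul, Oat and Slc1a2 stayed lower in all 10 other settings, these offsets included. The cause of the trend was not tested.

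The Glul mean in Stab1-/- liver was 59.7% of that in wildtype, 174 ± 15 against 292 ± 36.9 RPKM (SD, n = 4 and 4). The highest Stab1-/- library, at 184 RPKM, was below the lowest wildtype library, at 261. The fitted log2 difference in Glul was -0.83 (SE 0.125, adjusted p = 0.00618), and it lay between -0.89 and -0.73 and stayed called in each of 8 fits that left out 1 library.

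The Oat mean was 46.1% of wildtype, 35.6 ± 4.05 against 77.2 ± 16.9 RPKM, with a log2 difference of -1.22 (SE 0.167, adjusted p = 0.00405). Slc1a2 stood at 49.7%, 2.32 ± 0.308 against 4.68 ± 1.35 RPKM (log2 -1.11, SE 0.199, adjusted p = 0.0144). The wildtype spread of these genes was wide, from 52.2 to 89.3 RPKM for Oat and from 3.15 to 6.36 for Slc1a2, yet the Stab1-/- libraries remained below it, at most 41.2 and 2.66. When all 15 libraries shared 1 fit, whose spread includes the deviating fetal library, the Oat call was lost (log2 -1.20, adjusted p = 0.0712).

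Rhbg and Cyp2e1 lay on either side of the threshold depending on the method. Rhbg reached 74.4% of wildtype (log2 -0.51, SE 0.149, adjusted p = 0.0811), and its groups overlapped at 1 library on each side, 10.2 RPKM in Stab1-/- and 9.31 in wildtype. Cyp2e1 was at 148% of wildtype, 4540 ± 672 against 3060 ± 471 RPKM (log2 0.48, SE 0.169, adjusted p = 0.127). Every Stab1-/- library exceeded every wildtype library in Cyp2e1 RPKM, as 10.4% of all genes tested did. DESeq2 placed both past the threshold (adjusted p = 0.046 for Rhbg and 0.0451 for Cyp2e1).

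For the signals and the feedback targets the test called no difference between genotypes at 2 weeks. Stab1-/- means were 87.8% of wildtype for Wnt2, 94% for Rspo3, 89% for Axin2 and 126% for Lgr5, and the groups overlapped in all 4. The fitted log2 differences were -0.28 for Wnt2, -0.18 for Rspo3, -0.26 for Axin2 and 0.25 for Lgr5, with adjusted p between 0.325 and 0.557. Wnt9b was at 66.7% of wildtype on 22 reads against 35, a difference that was not detectable at this depth (no filter on low counts, adjusted p = 0.437).

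**Figure D4:**
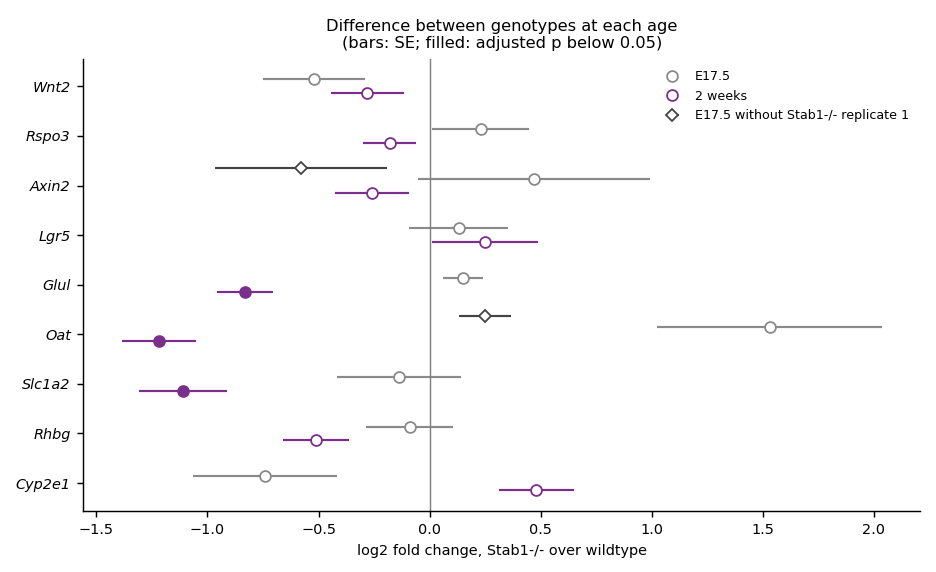
Log2 fold change of Stab1-/- over wildtype for the 9 tested genes at E17.5 and at 2 weeks, with SE bars and filled symbols at an adjusted p under 0.05. Glul, Oat and Slc1a2 are filled at 2 weeks, at -0.83, -1.22 and -1.11, and no gene is at E17.5, where diamonds show Axin2 and Oat without Stab1-/- replicate 1.

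The markers of other cells moved with genotype at 2 weeks in part. Of 10 stellate and fibroblast markers, 5 were lower in Stab1-/- liver, with Col1a2, Ngfr and Col1a1 at log2 -0.97, -0.99 and -1.03. Also lower were Kdr of 14 pan-endothelial genes (-0.43) and Dnase1l3 of 10 sinusoidal genes (-0.64). In the stellate, pan-endothelial and sinusoidal lists, 7, 7 and 4 genes had an unadjusted edgeR p under 0.05, and DESeq2 called 5, 4 and 3. The list medians were -0.58, -0.31 and -0.165, beside -0.01 over all genes tested. None of 10 hepatocyte markers was called by edgeR (4 had an unadjusted p under 0.05, and DESeq2 called 2). Their summed RPKM was 87200 to 110000 in Stab1-/- and 111000 to 137000 in wildtype libraries, without overlap. Abundant transcripts weigh most in that sum, and Alb averaged 44400 and 57000 RPKM in Stab1-/- and wildtype liver (log2 -0.45). The list median was -0.09, with Cebpa, Apob and Fgb positive (0.36, 0.23 and 0.10) and the other genes negative. None of 5 cholangiocyte, 7 macrophage and 8 tested erythroid markers was called (0, 2 and 2 had an unadjusted p under 0.05, and DESeq2 called none). Every marker of the 7 lists had reads in both groups, and their part in the differences of the 10 genes was not tested. Relative to the hepatocyte list mean, Glul remained lower by 0.72, Oat by 1.08 and Slc1a2 by 0.93, and Cyp2e1 higher by 0.58 on the log2 scale, each without overlap (exact permutation p = 0.0286, the smallest possible, 0.0676 adjusted). Relative to pan-endothelial genes, Wnt2 differed by -0.06 (exact permutation p = 0.571) and Rspo3 by 0.04 (exact permutation p = 0.543).

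The other zonal genes showed no single direction at 2 weeks. Of 21 other pericentral and feedback genes, 2 were higher in Stab1-/- liver, Cyp2c29 (206 RPKM in wildtype and 334 in Stab1-/- liver, log2 0.61, adjusted p = 0.0114) and Rgn (log2 0.52, adjusted p = 0.0423), and 1 was lower. The lower one, the organic cation transporter Slc22a3, held 2.21, 2.07, 1.43 and 1.87 RPKM in wildtype and 0.666, 0.756, 0.71 and 0.88 in Stab1-/- libraries (log2 -1.41, adjusted p = 0.0038). The median of this list was 0.07, beside -0.01 over all genes tested. Of the 21 genes, 7 had an unadjusted p under 0.05 in edgeR, DESeq2 called 4 and limma called 3. Cyp2e1, Cyp2c29 and Rgn thus had higher values in the same libraries in which Glul, Oat, Slc1a2 and Slc22a3 had lower ones.

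Of 20 periportal genes, 5 were lower and none was higher in Stab1-/- liver, with a list median of -0.45. They were Aldh1b1, Fbp1 and Etnppl (log2 -1.06, -0.64 and -1.05) and, named after their values were seen, Pck1 and G6pc, which drive gluconeogenesis (-0.90 and -0.82). The count of 5 fell to 3 without wildtype replicate 3 or 4 or without Stab1-/- replicate 1, 2 or 3 at 2 weeks. Of the 20 genes, 12 had an unadjusted p under 0.05 in edgeR, DESeq2 called 10 and limma called 3. Lower values were therefore found among genes of both zones.

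Of the pathway lists, the 27 tested receptors and transduction genes and the 6 other ligands held no call by edgeR (5 and 2 had an unadjusted p under 0.05, and DESeq2 called 1 and 0). Of 8 tested genes in the list of inhibitors and antagonists, Dkk3 alone was called (log2 -1.44, adjusted p = 0.00171). It held 2.33, 2.19, 2.47 and 2.65 RPKM in wildtype and 0.966, 1.15, 0.956 and 0.704 in Stab1-/- libraries. Notum, whose level follows Wnt activity in many tissues, averaged 33.9 RPKM in wildtype and 31.2 in Stab1-/- liver (log2 -0.20, adjusted p = 0.548). Sp5, from the list of other Wnt feedback genes, averaged 1.55 RPKM in wildtype and 0.822 in Stab1-/- liver, with overlap (log2 -1.01, adjusted p = 0.107). In the same list Nkd1 was at log2 -0.34 and Tbx3 at 0.16. None of these genes was called by edgeR.

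**Figure D5:**
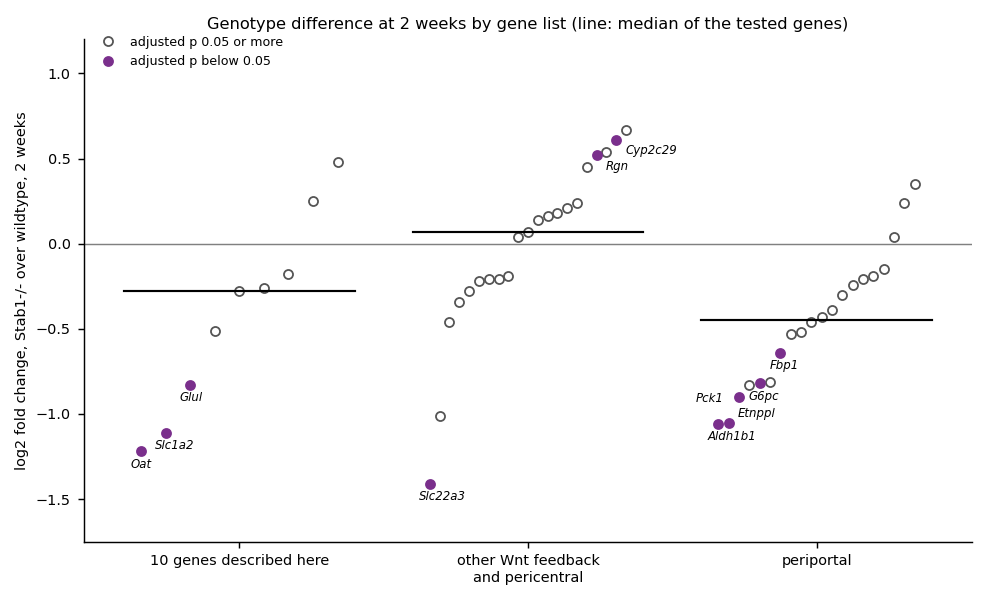
Log2 fold change of Stab1-/- over wildtype liver at 2 weeks for each tested gene of 3 lists, sorted within a list, with a line at the list median and filled points at an adjusted p under 0.05. Calls are lower in the 10 genes described here and in the periportal list, and in both directions in the list of other pericentral genes.

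At E17.5, none of the 9 tested genes was called between the genotypes by edgeR, where 0.366% of all genes tested were called. Of the 9, 3 had an unadjusted p under 0.05 (Oat, Cyp2e1 and Wnt2), and DESeq2 and limma called none. Over all genes 26 were higher and 23 lower, and 22 and 32 with libraries scaled by their totals. Wnt2 was at 66.9% of wildtype (log2 -0.52, SE 0.229, adjusted p = 0.381). Its genotypes did not overlap in RPKM, at most 1.47 in Stab1-/- and at least 1.55 in wildtype libraries. The share of all genes without overlap at this age was not counted. Relative to pan-endothelial and sinusoidal genes, Wnt2 differed by -0.59 and -0.52 on the log2 scale, with overlap (exact permutation p = 0.143 in both, 0.248 adjusted). Cyp2e1 was at 57.5% (log2 -0.74, SE 0.324, adjusted p = 0.376), with overlap. Glul, at 106% of wildtype, overlapped between genotypes (log2 0.15, SE 0.0889, adjusted p = 0.501).

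The fetal values of Oat and Axin2 turned on a single library. With all 3 Stab1-/- libraries Oat stood at 280% of wildtype (log2 1.53, SE 0.508, adjusted p = 0.265), and at 112% without replicate 1 (log2 0.25, SE 0.117, adjusted p = 0.581). Axin2 went from 134% (log2 0.47, SE 0.521, adjusted p = 0.722) to 63.1% (log2 -0.58, SE 0.386, adjusted p = 0.721). The remaining fetal levels, those of Rspo3, Lgr5, Slc1a2 and Rhbg, had adjusted p between 0.664 and 0.87 with all libraries. Among the lists, edgeR called none of 5 other ligands, 29 receptors and transduction genes, 9 inhibitors, 19 other pericentral and 20 periportal genes at E17.5 (0, 3, 1, 4 and 8 had an unadjusted p under 0.05, and DESeq2 called 3 periportal genes and none of the others).

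Whether the signed difference between genotypes changed from E17.5 to 2 weeks was tested directly over all 15 libraries. Of the 9 genes, 2 were called, Glul and Oat, where 1.81% of all genes tested were, 4 had an unadjusted p under 0.05, and DESeq2 called 3. Over all genes 111 terms were higher and 140 lower, and 209 and 83 with libraries scaled by their totals. That scaling moved the median from 0.01 to 0.12 on the log2 scale and left the sign of Glul and Oat as it was. Without Stab1-/- E17.5 replicate 1 the calls over all genes were 10 higher and 21 lower. The difference in Glul between genotypes was lower at 2 weeks by 0.95 on the log2 scale (SE 0.162, adjusted p = 0.018), and Glul stayed called in each of 15 fits that left out 1 library, with adjusted p between 0.0138 and 0.0481. For Oat the term was -2.69 (SE 0.557, adjusted p = 0.0307) with all libraries and -1.45 (SE 0.234, adjusted p = 0.0184) without Stab1-/- E17.5 replicate 1. The Oat call was lost without wildtype E17.5 replicate 1 or 2, wildtype 2-week replicate 3 or Stab1-/- 2-week replicate 1 or 2, with adjusted p between 0.0527 and 0.0734.

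For the other 7 genes the term did not pass the main test. Slc1a2, called at 2 weeks only, had a term of -0.93 (SE 0.377, adjusted p = 0.156). Cyp2e1, lower at E17.5 and higher at 2 weeks in Stab1-/- liver in fitted value, had a term of 1.25 (SE 0.385, adjusted p = 0.0843), which passed with DESeq2 (adjusted p = 0.0249) and without wildtype E17.5 replicate 4 (1.46, adjusted p = 0.0416). Wnt2, Rspo3, Axin2, Lgr5 and Rhbg had terms between -0.69 and 0.27, with adjusted p between 0.308 and 0.85. Axin2 changed sign without Stab1-/- E17.5 replicate 1, to 0.33.

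In order of mean level the 4 groups fell into the same arrangement for most genes, the fetal pair below the 2-week pair. Neighbouring fetal groups overlapped in RPKM for Rspo3, Axin2, Lgr5, Glul, Slc1a2, Rhbg and Cyp2e1, and neighbouring 2-week groups for Wnt2, Rspo3, Axin2, Lgr5 and Rhbg. For Glul and Slc1a2 the order rose from fetal liver to Stab1-/- and then to wildtype liver at 2 weeks, and for Cyp2e1 wildtype came before Stab1-/- liver. The order of Oat ran from wildtype E17.5 through Stab1-/- 2 weeks and Stab1-/- E17.5 to wildtype 2 weeks, its middle place being held by the group with the deviating library.

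The share of each gene's length with reads followed the levels. It was at least 98.3 percent for Glul in every library, while for Slc1a2 it went from at most 10.8 in the fetal libraries to between 44 and 83.9 at 2 weeks, and for Wnt2 from between 43 and 65 to between 59 and 79.1. Fetal Slc1a2 rested on 20 to 44 reads per library and fetal Axin2 on 9 to 59, so their fetal levels are less precise than that of Glul, which had 2778 to 3389 reads.

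Within groups, the genes whose libraries deviated most like Glul were Fhl3, Lmnb2, Rbm28, Tfe3 and Glo1 (Pearson's r from 0.898 to 0.818 of log2(RPKM + 0.1) after subtracting group means, among 12043 genes with a mean of at least 1 RPKM). Those most like Wnt2 were 2700097O09Rik, Lpxn, Slc35f5, Cd84 and Cerkl (r from 0.896 to 0.831). None of the 10 genes described here was among them. These are descriptions over 15 libraries that share their normalization, picked as the highest of many correlations. Between the 10 genes themselves the values ran from -0.601 for Wnt2 and Glul to 0.749 for Axin2 and Oat, the latter pair sharing the deviating fetal library.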

How the data were processed

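The authors deposited 3 values per gene and library: a count of reads mapped to 1 place, the deposited coverage as percent of the gene's length, and RPKM, in which the authors divided reads by gene length and by the library's total on genes. RPKM recomputed from the deposited counts differed by at most 5.11e-13 percent. Aligner, genome build, annotation and use of strand are not given in the sources used here. The 10 genes and all lists were chosen with earlier results of these data known. Libraries of a group were compared before averaging (lowest chi-square per degree of freedom 5.41), and none repeated another. Nothing says that libraries of a group came from separate litters, so p-values measure the spread between these libraries.

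The main test on counts was the two-sided quasi-likelihood test of edgeR 4.0.16 in R 4.3.3, with TMM scaling, filterByExpr (minimum count 10, minimum total 15) and Benjamini-Hochberg adjustment over all genes tested. Each comparison used its own groups, and the interaction all 15 libraries. Relative levels used log2(RPKM + 0.1) and exact two-sided permutation tests. Alternatives were DESeq2 1.42.0, limma 3.58.1 on log2(RPKM + 0.1) and log2(RPKM + 1), other scalings, no filter, a replicate block, all libraries in 1 fit and each library left out. GC-content offsets were added after seeing the data. The count test was checked on simulated data. Besides the 10 genes and Stab1, up to 3 called genes per list, comparison and direction with the lowest adjusted p were eligible to be named, and further genes were named after their values were seen. Counting limits cover counting error only, and 3 reads is the floor taken for a library.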

Additional observations from a re-analysis of the deposited data

Results flagged for a closer look

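Among 30 sets of 4 libraries (10 genes in 3 groups), 1 held a library far from the others, where chance gives about 1 in 20: Glul in Stab1-/- 2-week replicate 3, at 152 RPKM against 180 in the next. Of 163 genes tested in the lists, 10 had a genotype difference that itself differed between E17.5 and 2 weeks by the interaction test of edgeR, where 1.81% of all genes tested were called. The terms of all 10 were negative, while those called over all genes were 111 higher and 140 lower, or 209 and 83 with libraries scaled by their totals: on the log2 scale -0.95 for Glul, -2.69 for Oat, -1.58 for the transporter Slc22a3, -1.63 for Dkk3, -0.68 for the endothelial receptor Kdr, and, among periportal genes, -1.82 for G6pc, -1.19 for Hsd17b13, -1.38 for Hal, -1.47 for Aldh1b1 and -1.34 for Etnppl. Adjusted p-values ran from 0.018 for Glul to 0.0488 for G6pc. The periportal count of 5 was 1 without Stab1-/- E17.5 replicate 1 or 2 or Stab1-/- 2-week replicate 1 or 2, 2 without Stab1-/- 2-week replicate 3, wildtype 2-week replicate 3 or 4 or wildtype E17.5 replicate 2, and 3 without wildtype E17.5 replicate 1 or 4.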

How the results depend on the processing

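Of the log2 fold changes of the 9 tested genes (Wnt9b had no main test), 429 kept their direction and side of the threshold under other settings, 9 newly passed and 3 no longer passed. With 1 library left out, 393 kept both, 6 changed sign, 1 newly passed and 5 no longer passed. DESeq2 and the replicate block each called 5 genes at 2 weeks (3 in the main test), and limma called 1 in the interaction at both pseudocounts, log2(RPKM + 0.1) and log2(RPKM + 1) (2 in the main test, 3 with DESeq2, the block and the block with GC offsets). The third was Cyp2e1, with adjusted p from 0.0211 to 0.093 over 9 other settings. Leaving out 1 library gave 1 to 3 interaction calls. It also gave -0.98 to 0.63 for Oat between ages in Stab1-/- liver, -0.58 to 0.87 for Axin2 and -0.37 to 0.07 for Slc1a2 at E17.5, and -1.08 to 0.33 for Axin2 and -0.01 to 0.3 for Lgr5 in the interaction. The positive Oat value, both sign changes of Axin2 and the 0.07 for Slc1a2 came without Stab1-/- E17.5 replicate 1, and Slc1a2 was 0.02 without wildtype E17.5 replicate 1. The cause was not tested.

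Relative levels with 1 library left out ranged from 0.65 to 0.89 for Wnt2 over pan-endothelial genes between ages in wildtype and from 0.47 to 0.74 for Rspo3 over sinusoidal genes. At 2 weeks between genotypes they ranged from -0.17 to 0.05 and from -0.15 to 0.08 for Wnt2 over pan-endothelial and sinusoidal genes, -0.01 to 0.1 for Rspo3 over sinusoidal genes, and over hepatocyte genes -0.27 to 0.02 for Axin2, -1.23 to -1.01 for Oat, -1.08 to -0.8 for Slc1a2, -0.52 to -0.29 for Rhbg and 0.52 to 0.66 for Cyp2e1. With a pseudocount of 1, Wnt9b over pan-endothelial genes was -0.09 between ages in wildtype and 0.04 between genotypes at 2 weeks. Over sinusoidal genes it was -0.56 and -0.45 between ages in wildtype and Stab1-/- liver (both with an exact permutation p under 0.05 before adjustment) and 0.05 at 2 weeks. Lgr5 over hepatocyte genes was 1.0 between ages in Stab1-/- liver (its unadjusted exact permutation p no longer under 0.05) and -0.03 at E17.5. With a pseudocount of 0.01, Wnt9b over sinusoidal genes was 0.19 and 0.61 between ages, and Axin2 over hepatocyte genes -0.02 at E17.5.

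Over all genes, 340 calls at 2 weeks became 887 with DESeq2, 703 with all libraries in 1 fit, 219 with limma, 1181 with the replicate block, 770 with the block and GC offsets, and 116 without Stab1-/- replicate 1 to 648 without wildtype replicate 2. At E17.5, 49 became 219, 23 and 27 with DESeq2, the block and the block with GC offsets, and 27 to 46 with 1 library left out. In the interaction, 251 became 1066 with DESeq2, 440 with limma on log2(RPKM + 1), 591 with the block, 469 with the block and GC offsets, and 30 without wildtype E17.5 replicate 2 to 684 without wildtype 2-week replicate 2. The paper states no pairing of these libraries, and their numbers were not taken as pairs in the main test. Between genotypes at 2 weeks the correlations of same-numbered libraries were 0.166, -0.0118, 0.0956 and 0.114 (mean 0.0909, against -0.0305 for other pairs). At E17.5 the means were -0.11 against 0.0359. Between ages they were 0.0929 against -0.0309 in wildtype and -0.0302 against 0.00953 in Stab1-/- liver.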
